A study of Oryzias latipes with 15 samples.

Results

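The genes described here are the ion channel and neurotransmitter receptor genes of medaka testis, 179 of the 23028 genes measured. They were chosen by symbol alone: potassium channel genes (kcn), sodium (scn), calcium (cacn) and hyperpolarization-activated channel genes (hcn), and the receptor genes for glutamate (gria, grik, grin), GABA (gabr), glycine (glra, glrb) and acetylcholine (chrn). Medaka, Oryzias latipes, is a small freshwater teleost. Bulk RNA was sequenced from testis in 15 libraries, 3 replicates of each of 5 groups, which the design text calls biological replicates; the labels do not say whether 1 replicate was 1 fish or a pool, and give neither strain nor age. The groups were 0.01 mg/L KClO4 (potassium perchlorate, the low dose), 10 mg/L KClO4 (the high dose), 10 mg/L KClO4 with 3 mg/L vitamin C, vitamin C alone at 3 mg/L, and a control (0 mg/L KClO4). Perchlorate competes with iodide for entry into thyroid cells. Vitamin C is an antioxidant.

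Ion channels are membrane pores that set a cell's voltage and let ions in. Voltage-gated potassium, sodium and calcium channels open as that voltage changes, two-pore potassium channels leak at rest, and auxiliary subunits tune the pores. Ligand-gated receptors open when glutamate, GABA, glycine or acetylcholine binds. The genes are best known from neurons and muscle. In gonads, potassium and calcium channels are known to act in sperm motility and in eggs.

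Values are the deposited normalized read counts, and recovered depth lay between 3.21 and 21.3 M reads a library. The channel and receptor genes took 0.0826, 0.157 and 0.0963% of reads in high-dose replicates 1 to 3, and between 0.0683 and 0.0869% in the other 12 libraries. A gene was tested if its mean over the 15 libraries was at least 10, which 117 of the 179 passed, and was called where limma, fitted to all 17778 such genes, gave it an adjusted p (Benjamini-Hochberg) below 0.05. Fold changes are on the log2(value + 1) scale with the standard error (SE) of the fit, n = 3 libraries a group, and understate changes of genes with low counts. Testis markers were present in every group. Sertoli and Leydig cell markers summed to between 7877 and 16090 normalized counts at the low dose and 15070 and 18060 at the high dose, against 22120 to 24560 in the controls. At the high dose the 2 called lower were both annotated amh, and ENSORLG00000015951 averaged 4420 counts against 12240 in control. There gsdf averaged 9505 against 8055, without a call, and the median log2 fold change of these markers was -0.06. Of all tested genes, 22.9% were called lower at the low dose and 20.5% at the high dose. At the low dose 5 of 9 Sertoli and Leydig, 8 of 10 meiotic and 5 of 7 spermatid markers were called lower. At the high dose 2 of 9, 6 of 10 and 1 of 7 were. Their part in the results was not tested. The 3 low-dose libraries stood apart by oocyte genes: 8 oocyte markers summed to 107400, 239100 and 22620 normalized counts in low-dose replicates 1 to 3, against 275, 365 and 294 in the controls. In bulk RNA, fewer cells of a type and less RNA per cell cannot be told apart.

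At the high dose most of the calls were rises. The high dose had 55 of the 117 tested genes higher than control and 4 lower, with a background over all tested genes of 18.3% higher and 20.5% lower. The members called higher spanned log2 fold changes of 0.71 to 3.46, and in 53 of the 55 every high-dose library lay above every control. Called or not, 57 members had all high-dose libraries above all controls and 7 had all below, beside 28.6% and 28.8% of all tested genes. The median log2 fold change was 0.98 for the 117 genes and 0.05 for all tested genes. Part of that gap went with level: among genes with means of 10 to 100, 54 of 99 members were higher beside 34.6% of all 6863, 1 was lower beside 7.36%, and the medians were 1.25 and 0.70. In the 18 members with means of at least 100 the median was 0.09, against -0.18 over all such genes. The family, marker and related-gene counts below are set beside all tested genes of any level, not beside genes with means of 10 to 100. Of the 117 members, 13 reached the minimum mean only through the high-dose libraries and 12 of those were called higher; with a minimum mean of 10 outside the high dose, a filter chosen after seeing the data, 42 were higher and 4 lower of 104, beside 16.0% and 21.1% of all genes. The 12 were KCNH8, KCNN2, scn4aa, GRIK1, grin1a, gabrb2a, gabrr1, gabra6a, GABRG1, chrne, chrna5 and chrna6 (ENSORLG00000014308), and for them a high-dose rise was built into passing the filter. After quantile normalization 33 members were higher and 12 lower, beside 16.2% and 18.6% of all genes. Scaling on highly expressed genes (at least 500 counts on average in control) moved the median of all genes to 0.42. It gave 68 members higher and 2 lower, beside 32% and 10.3% of all genes.

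Changes at the low dose were fewer and went both ways. It had 22 of the 117 genes higher than control and 17 lower, with a background of 24.9% higher and 22.9% lower, and the median log2 fold change was 0.05, against -0.01 over all genes. Quantile normalization gave 17 higher and 24 lower, beside 19.5% and 27.3% of all genes. Scaling on the highly expressed genes gave 29 and 12, beside 34.4% and 13.8%. Fitted on the low-dose and control libraries alone, 14 were higher and 4 lower, beside 10.7% and 7.57% of all genes. There 13 of the 17 falls lost their calls (adjusted p = 0.0531 to 0.144), among them cacna1ba, cacnb4.1, CACNG2, chrna11, chrna4b, grin2bb, KCNAB2, KCNJ6, KCNH8, scn1ba and SCN8A, and 8 of the 22 rises (adjusted p = 0.0573 to 0.117), among them scn2b, glra2 and grinab. KCNIP3 and kcnk15 reached the minimum mean only through the low-dose libraries, so that for them a low-dose rise was built into passing the filter. Called or not, 27 members had all low-dose libraries above all controls and 22 had all below, beside 25.1% and 26% of all tested genes. All 22 members called higher had every low-dose library above every control, as 16 of the 17 called lower had every low-dose library below. Low-dose replicate 2 was the highest of the 3 low-dose libraries in 19 of the 22 and the lowest in 14 of the 17; low-dose replicate 3, with the fewest oocyte marker counts, was neither in any.

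**Figure D1:**
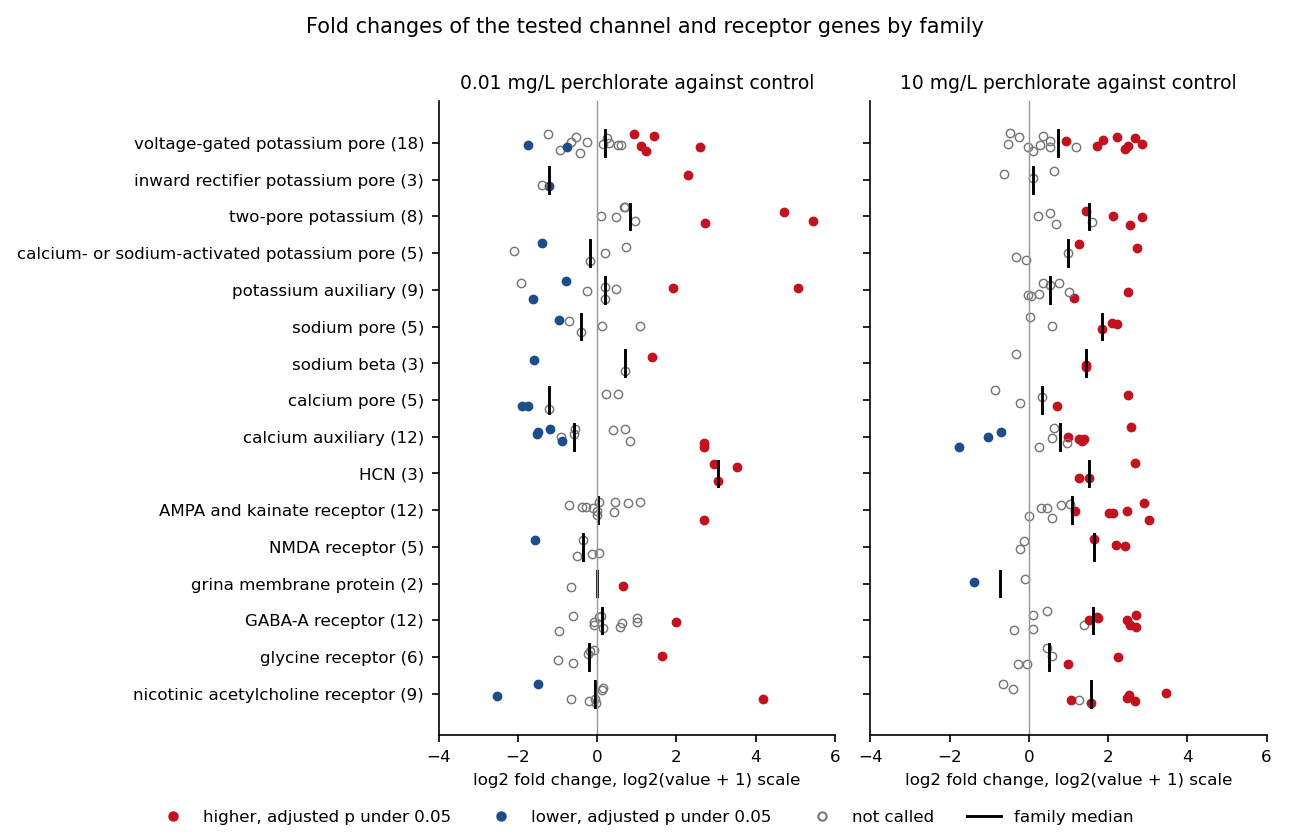
Each point is 1 of the 117 tested genes, placed by its log2 fold change (horizontal axis) in its family (rows, with the number tested). The left panel compares 0.01 mg/L perchlorate with control and the right panel 10 mg/L with control. Red points were called higher and blue points lower, open points were not called, and black bars are family medians. At the low dose 22 red and 17 blue points lie on either side of 0, and at the high dose 55 red points lie to the right of 4 blue ones.

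Two-pore potassium channels, which carry resting leak currents, held the largest difference at the low dose. kcnk6 (ENSORLG00000001728), a TWIK-family leak channel, had 1594, 1975 and 494 normalized counts in low-dose replicates 1 to 3, against 28.6, 22.4 and 25.5 in control replicates 1 to 3. Every low-dose library lay far above every control, with replicate 3 the lowest of the low-dose libraries, and the log2 fold change was 5.46 ± 0.40 (limma adjusted p = 9.12e-08). High-dose libraries had 37.3, 48.8 and 27.6, which overlapped the controls (log2 fold change 0.52 ± 0.40, adjusted p = 0.311). kcnk5a (ENSORLG00000017788), a TASK-2 type channel opened by alkaline pH, had 546, 884 and 120.1 in the low-dose libraries, against 57.3, 51.1 and 67.7 in the controls. It was called higher (log2 fold change 2.71 ± 0.48, adjusted p = 0.00067), with the third low-dose library well below the other two. kcnk15 (ENSORLG00000011872) had 75.7, 156 and 25.5 in the low-dose libraries, against 2.12, 0 and 4.69 in the controls (log2 fold change 4.71 ± 1.12, adjusted p = 0.00348), and its controls were at or near 0; it passed the filter only through the low dose. In all, 3 of the 8 two-pore genes tested rose at the low dose and none fell, beside 24.9% and 22.9% of all tested genes. At the high dose 4 rose and none fell, beside 18.3% and 20.5%.

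Another set of two-pore genes was called at the high dose. KCNK12 (ENSORLG00000011086), the THIK-2 channel, had 57.5, 138 and 65.9 normalized counts in the high-dose libraries, against 10.6, 11.2 and 9.38 in the controls. No library overlapped, and the log2 fold change was 2.84 ± 0.46 (limma adjusted p = 0.000316). kcnk13b (ENSORLG00000010736), of the THIK-1 gene, had 17.2, 87.97 and 51.02 against 7.42, 4.98 and 7.37 (log2 fold change 2.55 ± 0.51, adjusted p = 0.00142). kcnk10a (ENSORLG00000015381), of the stretch-sensitive TREK-2 channel, had 11.5, 32.1 and 13.8 against 1.06, 3.74 and 6.70 (log2 fold change 2.12 ± 0.56, adjusted p = 0.0075, and 0.152 after quantile normalization). The fourth was kcnk5a, with 152, 134 and 198 in the high-dose libraries (log2 fold change 1.44 ± 0.48, adjusted p = 0.0282). Its high-dose call was lost without control replicate 1 or 2 or without any 1 high-dose library (adjusted p = 0.0535 to 0.0907).

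Voltage-gated potassium channel pores, which repolarize excitable cells, gave 8 higher and none lower of 18 tested at the high dose, while 5 rose and 2 fell at the low dose. After quantile normalization those counts were 6 and 3 at the high dose and 1 and 4 at the low dose. In the main fit the background was 18.3% higher and 20.5% lower at the high dose, and 24.9% and 22.9% at the low dose. kcnc3b (ENSORLG00000006919), a fast-repolarizing Kv3.3 channel, had 45.96, 133 and 54.2 normalized counts in the high-dose libraries, against 8.48, 6.23 and 12.1 in the controls. The groups did not overlap (log2 fold change 2.87 ± 0.45, limma adjusted p = 0.000297). KCNH8 (ENSORLG00000004750), an Elk-type channel, had 3.18, 6.23 and 4.02 in the controls, 0, 0 and 3.00 in the low-dose libraries and 25.9, 69.3 and 20.2 in the high-dose libraries. It was higher at the high dose than in control (log2 fold change 2.68 ± 0.65, adjusted p = 0.00478). Its call as lower at the low dose (log2 fold change -1.75 ± 0.65, adjusted p = 0.0372) rested on counts near 0 and was lost without any 1 control or without low-dose replicate 1 or 2 (adjusted p = 0.0564 to 0.131).

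KCNQ3, kcnf1a and KCNB2 also rose at the high dose, and kept their calls whichever library was left out. KCNQ3 (ENSORLG00000006562), which carries the M-current, had 22.98, 61.00 and 43.6 normalized counts in the high-dose libraries, against 5.30, 4.98 and 8.71 in the controls (log2 fold change 2.50 ± 0.51, limma adjusted p = 0.00151). kcnf1a (ENSORLG00000012699), a silent subunit that modifies other Kv channels, had 43.1, 94.4 and 64.8 against 14.8, 4.98 and 17.4 (log2 fold change 2.44 ± 0.44, adjusted p = 0.00066). KCNB2 (ENSORLG00000008012), a delayed rectifier, had 57.5, 128 and 83.98 against 26.5, 17.4 and 34.8 (log2 fold change 1.72 ± 0.36, adjusted p = 0.00177). In all 3 genes high-dose replicate 2 was the highest library and no high-dose library overlapped the controls. At the low dose, kcnh1a (ENSORLG00000004060), an ether-a-go-go channel, had 75.7, 134 and 25.5, against 11.7, 9.97 and 8.04 in the controls (log2 fold change 2.59 ± 0.59, adjusted p = 0.00275). High-dose libraries had 5.75, 29.5 and 11.7, overlapping the controls (log2 fold change 0.35 ± 0.59, adjusted p = 0.664). The 2 genes annotated KCNH7 differed at the low dose: ENSORLG00000003353 was called higher (log2 fold change 0.94 ± 0.35) and ENSORLG00000016915 lower (log2 fold change -0.75 ± 0.29), and both calls were lost without control replicate 1 (adjusted p = 0.12 and 0.0726) and in other left-out fits.

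Potassium channels gated by calcium or sodium inside the cell were tested in all 5 members. kcnma1a (ENSORLG00000006622), the large-conductance BK channel, had 18.03, 12.5 and 14.1 normalized counts in the controls, 28.7, 7.19 and 22.5 in the low-dose libraries and 60.3, 174 and 105 in the high-dose libraries. The 3 high-dose libraries lay above the other 6, and the log2 fold change over control was 2.74 ± 0.48 (limma adjusted p = 0.000571). KCNT1 (ENSORLG00000000733), the sodium-activated Slack channel, had 28.7, 23.96 and 39.03 in the low-dose libraries, against 80.6, 83.5 and 76.4 in the controls. It was lower in every low-dose library (log2 fold change -1.39 ± 0.26, adjusted p = 0.000811). KCNN2 (ENSORLG00000009605), the small-conductance SK2 channel, had 20.1, 25.7 and 20.2 in the high-dose libraries, against 6.36, 7.48 and 12.7 in the controls (log2 fold change 1.27 ± 0.40, adjusted p = 0.0201). That call was lost without control replicate 1 or 2 or high-dose replicate 2 (adjusted p = 0.055 to 0.0886), and after quantile normalization the log2 fold change was 0.18 (adjusted p = 0.72).

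Among the auxiliary potassium channel subunits, KCNIP3 had the largest difference. KCNIP3 (ENSORLG00000002929), a calcium-binding partner of Kv4 channels, had 172, 333 and 27.02 normalized counts in the low-dose libraries, against 4.24, 1.25 and 2.68 in the controls. Every low-dose library was above every control, with replicate 3 well below the other two, and the gene passed the filter only through these libraries (log2 fold change 5.06 ± 0.73, limma adjusted p = 0.000144). The high-dose libraries had 14.4, 36.6 and 12.8 (log2 fold change 2.51 ± 0.73, adjusted p = 0.0133), a call lost without control replicate 2 (adjusted p = 0.0626) or high-dose replicate 2 (adjusted p = 0.0711), and after quantile normalization (adjusted p = 0.154). kcnip1b (ENSORLG00000010149), of the same calcium-binding family, had 22.5, 19.2 and 54.04 in the low-dose libraries, against 78.5, 113 and 80.4 in the controls, lower in every library (log2 fold change -1.61 ± 0.37, adjusted p = 0.00289). The beta subunit gene KCNAB2 (ENSORLG00000004327) had 121, 127 and 180.1 against 263, 264 and 209.7, also lower (log2 fold change -0.80 ± 0.21, adjusted p = 0.00664), and its adjusted p was 0.0694 after scaling on the highly expressed genes. Of the 9 auxiliary genes tested, 2 rose and 2 fell at the low dose, beside 24.9% and 22.9% of all tested genes. At the high dose 2 rose and none fell, beside 18.3% and 20.5%.

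Of the 3 inward rectifiers tested, 1 rose and 1 fell at the low dose and none was called at the high dose. The low-dose background over all tested genes was 24.9% higher and 22.9% lower. kcnj8 (ENSORLG00000017094), the pore of the ATP-sensitive Kir6.1 channel, had 201, 403 and 96.1 normalized counts in the low-dose libraries, against 46.7, 31.1 and 43.6 in the controls (log2 fold change 2.29 ± 0.50, limma adjusted p = 0.00218). KCNJ6 (ENSORLG00000014092), a G-protein-gated rectifier, had 69.6, 43.1 and 79.6 against 131, 211 and 109.9 (log2 fold change -1.21 ± 0.28, adjusted p = 0.00281). Neither gene's groups overlapped, and the 2 genes moved in opposite directions.

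Hyperpolarization-activated (HCN) channels carry pacemaker currents, and HCN2 and HCN4 rose at the low dose. HCN2 (ENSORLG00000004318) had 221, 225 and 57.04 normalized counts in the low-dose libraries, against 12.7, 8.72 and 13.4 in the controls (log2 fold change 3.52 ± 0.57, limma adjusted p = 0.000342). HCN4 (ENSORLG00000013180) had 153, 239.6 and 61.5 against 11.7, 19.9 and 14.7 (log2 fold change 3.04 ± 0.48, adjusted p = 0.000299). For both genes all low-dose libraries lay above all controls and replicate 3 was the lowest of the low-dose libraries. HCN2 and HCN4 were called at the high dose too (log2 fold changes 1.52 ± 0.57 and 1.27 ± 0.48, adjusted p = 0.0449 and 0.0464), but both calls were lost without any 1 control or without high-dose replicate 2 or 3 (adjusted p = 0.0616 to 0.229), and after quantile normalization (adjusted p = 0.286 and 0.364).

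**Figure D2:**
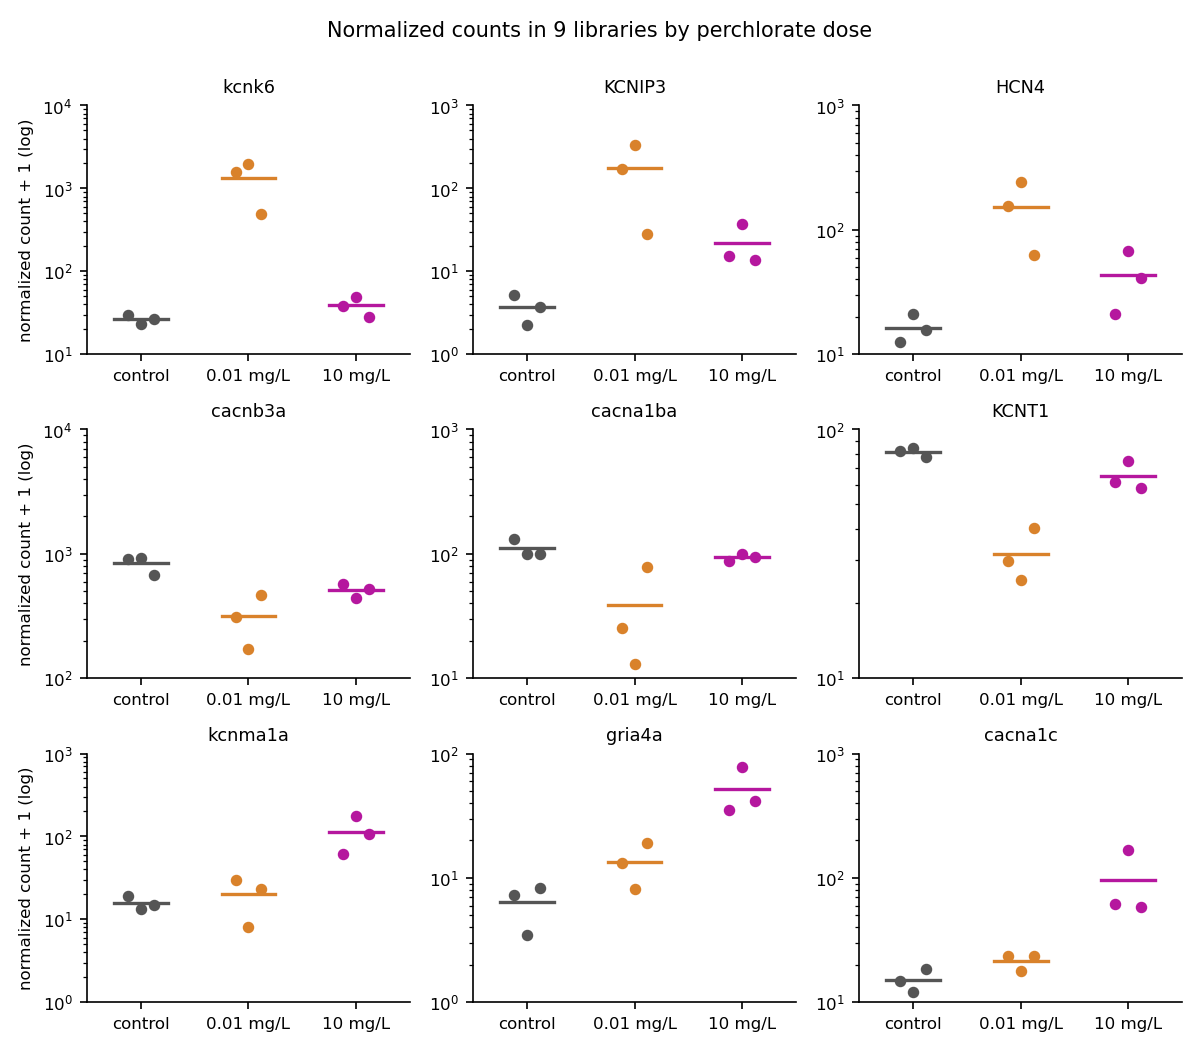
Normalized counts plus 1 on log axes for 9 genes in 3 control, 3 low-dose (0.01 mg/L) and 3 high-dose (10 mg/L) libraries; points are libraries and bars are group means. kcnk6, KCNIP3 and HCN4 are highest at the low dose, cacnb3a, cacna1ba and KCNT1 are lowest there, and kcnma1a, gria4a and cacna1c are highest at the high dose.

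Some genes that rose at the low dose had the same order as the oocyte markers across the 3 low-dose libraries. kcnk6, KCNIP3, HCN4 and kcnk5a were each highest in replicate 2, with 239100 summed oocyte marker counts, and lowest in replicate 3, with 22620. With the low dose as its replicate 3 alone, the log2 fold changes of these genes were 4.23, 3.00, 1.96 and 1.03, in that order. In that fit cacnb3a and chrna11, called lower at the low dose, had -0.82 and -2.25. Each was smaller in size than with all 3 low-dose libraries. The median there was 0.23 over the 117 genes, against -0.01 over all genes. In the 3 vitamin C alone libraries the oocyte markers summed to 1513, 1522 and 2373 counts, above the controls. There kcnk6 had 45.99, 42.5 and 46.01, each above every control but without a call (limma adjusted p = 0.563). In that comparison 0.304% of all tested genes were called higher and 0.101% lower. The part of oocyte RNA in these results was not tested.

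**Figure D3:**
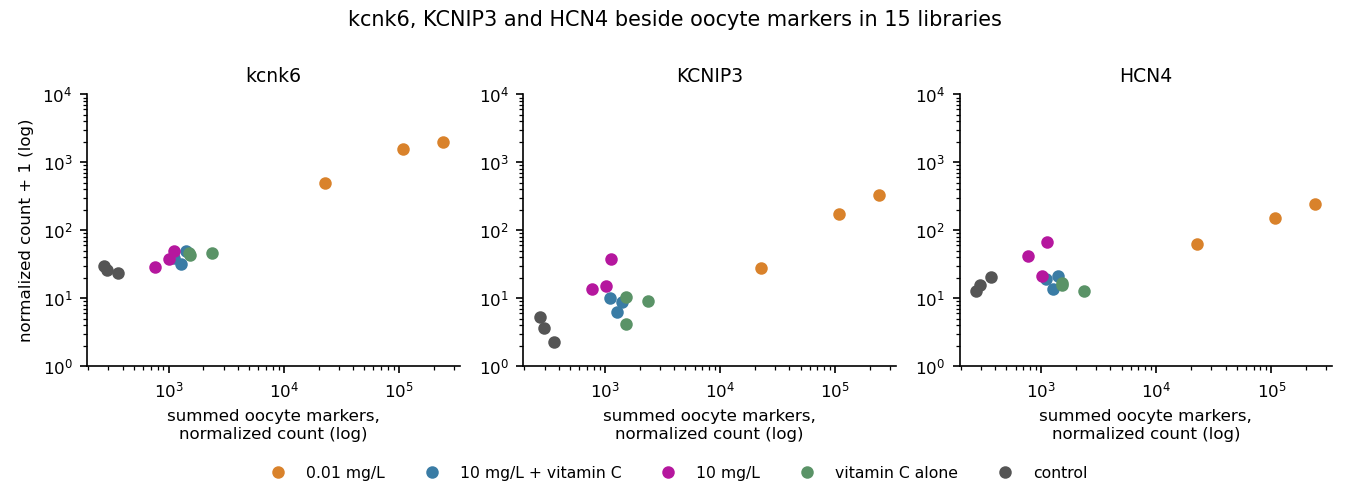
Normalized counts plus 1 of kcnk6, KCNIP3 and HCN4 (vertical, log axis) beside the summed normalized counts of 8 oocyte markers (horizontal, log axis), 1 point a library for all 15 libraries. The 3 low-dose points lie at 22620 to 239100 marker counts and hold the highest kcnk6 values, while the other 12 libraries reach at most 2373 marker counts.

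Voltage-gated sodium channels start action potentials. Of 5 pore genes tested, 3 rose at the high dose and none fell, beside 18.3% and 20.5% of all tested genes. scn12aa (ENSORLG00000011677) had 34.5, 125 and 43.6 normalized counts in the high-dose libraries, against 10.6, 13.7 and 14.1 in the controls (log2 fold change 2.09 ± 0.47, limma adjusted p = 0.00284). scn1lab (ENSORLG00000003411) had 28.7, 106 and 49.96 against 15.9, 12.5 and 14.7 (log2 fold change 1.83 ± 0.45, adjusted p = 0.0048). In both genes the groups did not overlap. The third was scn4aa (ENSORLG00000011619), of the muscle-type channel, with 11.5, 60.4 and 9.57 against 2.12, 4.98 and 3.35 (log2 fold change 2.21 ± 0.73, adjusted p = 0.026), a call lost without control replicate 1 or 3 or high-dose replicate 2 (adjusted p = 0.0529 to 0.145) and after quantile normalization (adjusted p = 0.251). SCN8A (ENSORLG00000006930), the Nav1.6 channel of axons, had 374, 321 and 340.4 in the controls, 207, 108 and 242 in the low-dose libraries and 368, 346 and 341 in the high-dose libraries. It was lower at the low dose than in control, without overlap (log2 fold change -0.97 ± 0.24, adjusted p = 0.0041), and the high dose overlapped the controls (log2 fold change 0.03 ± 0.24, adjusted p = 0.939).

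The beta subunits, which anchor and tune sodium pores, differed among themselves. scn1ba (ENSORLG00000016790) had 36.8, 14.4 and 85.6 normalized counts in the low-dose libraries, against 97.6, 115 and 119 in the controls, and fell (log2 fold change -1.59 ± 0.42, limma adjusted p = 0.00636). scn2b (ENSORLG00000012094) had 57.3, 98.2 and 39.03 against 23.3, 34.9 and 14.1, and rose (log2 fold change 1.38 ± 0.36, adjusted p = 0.00618). scn2b at the high dose had 60.3, 69.99 and 59.5 (log2 fold change 1.44 ± 0.36, adjusted p = 0.00569, and 0.0713 after quantile normalization). scn3b (ENSORLG00000007529) had 106, 138 and 93.5 at the high dose, against 28.6, 46.1 and 48.9 in the controls (log2 fold change 1.45 ± 0.33, adjusted p = 0.00296). For scn2b and scn3b no high-dose library overlapped the controls.

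Voltage-gated calcium channels couple voltage to calcium entry. Of 5 pore genes tested, 2 fell and none rose at the low dose, beside 22.9% lower and 24.9% higher of all tested genes. At the high dose 2 rose and none fell, beside 18.3% and 20.5%. CACNA1D (ENSORLG00000003397), an L-type Cav1.3 channel, had 51.2, 35.9 and 87.1 normalized counts in the low-dose libraries, against 207, 277 and 108 in the controls (log2 fold change -1.74 ± 0.35, limma adjusted p = 0.00141). cacna1ba (ENSORLG00000017749), the N-type channel of nerve terminals, had 24.6, 11.98 and 78.1 against 130.4, 99.7 and 99.2 (log2 fold change -1.89 ± 0.44, adjusted p = 0.00303). Both were lowest in low-dose replicate 2, and no low-dose library reached a control. cacna1c (ENSORLG00000014296), the L-type Cav1.2 channel of heart and smooth muscle, had 13.8, 11.2 and 17.4 in the controls, 22.5, 16.8 and 22.5 in the low-dose libraries and 60.3, 166 and 57.4 in the high-dose libraries. It was higher at the high dose than in control (log2 fold change 2.50 ± 0.38, adjusted p = 0.000246). The other pore called at the high dose was cacna1da (ENSORLG00000002583), the second Cav1.3 copy, with a log2 fold change of 0.71 ± 0.27 (adjusted p = 0.0454) that lost its call without any 1 control or without high-dose replicate 2 or 3 (adjusted p = 0.0554 to 0.154), and after quantile normalization (adjusted p = 0.335).

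Auxiliary calcium channel subunits were the group with falls at both doses. Of 12 tested, 2 rose and 4 fell at the low dose, beside 24.9% and 22.9% of all tested genes. At the high dose 5 rose and 3 fell, beside 18.3% and 20.5%. After quantile normalization 1 rose and 2 fell at the high dose. cacnb3a (ENSORLG00000012349), a beta subunit that brings the pore to the membrane, had 917, 931 and 679 normalized counts in the controls, 313, 170.1 and 471 in the low-dose libraries and 575, 446 and 518 in the high-dose libraries. All 6 perchlorate libraries lay below all controls (log2 fold change -1.51 ± 0.27 at the low dose, limma adjusted p = 0.000652, and -0.71 ± 0.27 at the high dose, adjusted p = 0.0467). The high-dose call was lost without control replicate 1 or 2 or without any 1 high-dose library (adjusted p = 0.0544 to 0.153), after quantile normalization (adjusted p = 0.269) and after scaling on the highly expressed genes (adjusted p = 0.259).

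A second beta subunit and an alpha2delta subunit were called at both doses. cacnb4.1 (ENSORLG00000006530) had 275, 229 and 172 normalized counts in the controls, 121, 91.1 and 158 in the low-dose libraries and 109, 103 and 113 in the high-dose libraries. It was lower at both doses (log2 fold changes -0.88 ± 0.24 and -1.03 ± 0.24, limma adjusted p = 0.00801 and 0.00378), and the high-dose libraries lay close together. CACNA2D3 (ENSORLG00000008787), an alpha2delta subunit, had 6.36, 6.23 and 6.70 in the controls, 45.02, 93.5 and 24.02 in the low-dose libraries and 22.98, 88.6 and 39.3 in the high-dose libraries. It was higher at both doses (log2 fold changes 2.68 ± 0.51 and 2.58 ± 0.51, adjusted p = 0.00092 and 0.00121). cacnb2b (ENSORLG00000017898) had 151, 321 and 48.03 in the low-dose libraries, against 23.3, 11.2 and 28.8 in the controls (log2 fold change 2.69 ± 0.56, adjusted p = 0.00163). CACNG2 (ENSORLG00000023438), stargazin, which carries AMPA receptors to the synapse in mammals, had 100.3, 16.8 and 139.6 in the low-dose libraries, against 145, 239 and 168 in the controls. Its call (log2 fold change -1.52 ± 0.51, adjusted p = 0.0228) was lost without control replicate 2 (adjusted p = 0.0884) or low-dose replicate 2 (adjusted p = 0.0513).

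Ionotropic glutamate receptors carry fast excitatory signals. All 17 were tested, and 9 rose and none fell at the high dose, beside 18.3% and 20.5% of all tested genes. At the low dose 1 rose and 1 fell, beside 24.9% and 22.9%. Of the 9, GRIK1 and grin1a passed the filter only through the high-dose libraries. gria4a (ENSORLG00000010595), an AMPA receptor subunit, had 6.36, 2.49 and 7.37 normalized counts in the controls, 12.3, 7.19 and 18.01 in the low-dose libraries and 34.5, 77.1 and 40.4 in the high-dose libraries. Every high-dose library was above every other library of the dose series (log2 fold change over control 3.02 ± 0.44, limma adjusted p = 0.000191). gria1a (ENSORLG00000007719), a second AMPA subunit, had 28.6, 22.4 and 26.8 in the controls, 201, 374 and 67.5 in the low-dose libraries and 86.2, 202 and 87.2 in the high-dose libraries. It was higher at both doses (log2 fold changes 2.69 ± 0.48 and 2.11 ± 0.48, adjusted p = 0.000708 and 0.00328). The AMPA subunit gene gria2b (ENSORLG00000020342) had 37.3, 66.1 and 22.3 at the high dose, against 36.1, 38.6 and 40.2 in the controls, overlapping and without a call (adjusted p = 0.996).

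Kainate receptor subunits made up 4 of the 6 AMPA and kainate calls at the high dose. GRIK1 (ENSORLG00000003362) had 34.5, 51.4 and 15.9 normalized counts in the high-dose libraries, against 3.18, 2.49 and 4.02 in the controls (log2 fold change 2.92 ± 0.52, limma adjusted p = 0.000597). GRIK3 (ENSORLG00000014461) had 66.1, 150.2 and 60.6 against 13.8, 8.72 and 24.8 (log2 fold change 2.47 ± 0.51, adjusted p = 0.00174). grik5 (ENSORLG00000013374), which needs another kainate subunit to form a channel, had 60.3, 175 and 149.9 against 38.2, 24.9 and 23.5 (log2 fold change 2.01 ± 0.38, adjusted p = 0.000955). None of these 3 overlapped between the groups. Of the 2 genes annotated GRIK2, ENSORLG00000012884 was called (log2 fold change 1.15 ± 0.38, adjusted p = 0.0266; 0.0957, 0.0796 and 0.136 without control replicate 1, control replicate 2 or high-dose replicate 2, and 0.259 after quantile normalization), and ENSORLG00000004024 was not (log2 fold change 0.46 ± 0.38, adjusted p = 0.358).

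NMDA receptors need a GRIN1 subunit together with GRIN2 subunits. The obligatory subunit gene grin1a (ENSORLG00000014189) had 17.2, 30.2 and 25.5 normalized counts in the high-dose libraries, against 8.48, 3.74 and 10.1 in the controls (log2 fold change 1.64 ± 0.43, limma adjusted p = 0.00753). GRIN2A (ENSORLG00000012714) had 43.1, 192 and 75.5 against 16.97, 14.95 and 22.8 (log2 fold change 2.19 ± 0.55, adjusted p = 0.00577). GRIN2C (ENSORLG00000000882) had 40.2, 147 and 57.4 against 11.7, 8.72 and 18.1 (log2 fold change 2.42 ± 0.45, adjusted p = 0.000806). In all 3 the lowest high-dose library was above the highest control. After quantile normalization grin1a was not called at the high dose (adjusted p = 0.253), and the NMDA family counted 2 higher and 1 lower. grin2bb (ENSORLG00000004215) had 14.3, 4.79 and 22.5 in the low-dose libraries, against 38.2, 36.1 and 36.9 in the controls, lower in every library (log2 fold change -1.57 ± 0.44, adjusted p = 0.009).

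2 genes that the symbol rule took with the NMDA receptors, grinaa and grinab, are named after a receptor-associated membrane protein and form no glutamate receptor. grinaa (ENSORLG00000012640) had 442, 248 and 248 normalized counts in the high-dose libraries, against 860.0, 1103 and 509 in the controls. It was lower in every high-dose library (log2 fold change -1.38 ± 0.28, limma adjusted p = 0.00142). grinab (ENSORLG00000007899) had 415, 544 and 278 in the low-dose libraries, against 257, 249 and 252 in the controls (log2 fold change 0.65 ± 0.24, adjusted p = 0.0358); that call was lost without any 1 control or without low-dose replicate 1 or 2 (adjusted p = 0.0716 to 0.162), and quantile normalization gave 0 higher and 1 lower of the pair.

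GABA-A receptors are chloride channels that usually inhibit neurons, and their rho subunits were first known from retina. Of 12 tested, 7 rose and none fell at the high dose, beside 18.3% and 20.5% of all tested genes. At the low dose 1 rose and none fell, beside 24.9% and 22.9%. After quantile normalization 5 rose and 1 fell at the high dose. Of the 7, gabrb2a, gabra6a, gabrr1 and GABRG1 passed the filter only through the high-dose libraries, and without such genes 3 of 8 rose. gabrb2a (ENSORLG00000005749), a beta subunit, had 20.1, 83.5 and 25.5 normalized counts at the high dose, against 2.12, 9.97 and 4.02 in the controls (log2 fold change 2.701 ± 0.60, limma adjusted p = 0.0026). gabra6a (ENSORLG00000005768) had 17.2, 41.7 and 18.1 against 3.18, 2.49 and 4.02 (log2 fold change 2.56 ± 0.49, adjusted p = 0.00098). Neither of these overlapped the controls. The rho subunit gene gabrr2a (ENSORLG00000011062) had 91.9, 132 and 128 against 38.2, 28.7 and 56.96 (log2 fold change 1.52 ± 0.36, adjusted p = 0.00374), and gabrr1 (ENSORLG00000017884) had 17.2, 43.7 and 20.2 against 2.12, 2.49 and 8.04 (log2 fold change 2.48 ± 0.53, adjusted p = 0.00202). By contrast gabra4 (ENSORLG00000009442) had 91.9, 185 and 81.8 against 99.7, 142 and 81.1, overlapping and without a call (adjusted p = 0.873).

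Glycine receptors are also chloride channels, known from spinal cord. Of 6 tested, 2 rose at the high dose and 1 at the low dose, and none fell. The background was 18.3% higher and 20.5% lower at the high dose, and 24.9% and 22.9% at the low dose. glra2 (ENSORLG00000017830) had 9.54, 8.72 and 9.38 normalized counts in the controls, 36.8, 57.5 and 13.5 in the low-dose libraries and 34.5, 74.5 and 41.5 in the high-dose libraries. It was higher at the high dose (log2 fold change 2.25 ± 0.50, limma adjusted p = 0.00264) and at the low dose (log2 fold change 1.64 ± 0.50, adjusted p = 0.0135), where the call was lost without low-dose replicate 2 (adjusted p = 0.0767). glra1 (ENSORLG00000011468) had 20.1, 26.3 and 11.7 at the high dose, against 11.7, 16.2 and 12.1 in the controls, overlapping and without a call (adjusted p = 0.4).

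Nicotinic acetylcholine receptors were the largest receptor family by symbol, with 20 members, of which 9 were tested. 6 rose at the high dose and none fell, beside 18.3% and 20.5% of all tested genes. At the low dose 1 rose and 2 fell, beside 24.9% and 22.9%. After quantile normalization the high-dose counts were 3 and 1. Of the 6, chrne, chrna5 and chrna6 (ENSORLG00000014308) passed the filter only through the high-dose libraries, and without them 3 of 6 rose. chrna6 (ENSORLG00000014308), 1 of 2 genes annotated chrna6, had 45.96, 53.3 and 30.8 normalized counts in the high-dose libraries, against 5.30, 1.25 and 3.35 in the controls. The groups did not overlap (log2 fold change 3.46 ± 0.72, limma adjusted p = 0.00181). The other chrna6 gene, ENSORLG00000003243, had 47.1, 40.7 and 12.01 at the low dose, against 0, 0 and 3.35 in the controls (log2 fold change 4.18 ± 0.84, adjusted p = 0.0013). Controls 1 and 2 held no read of it, so the fitted size depends on the value added before taking logs.

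The other nicotinic calls at the high dose were chrne, CHRNA2, chrna5, chrnb3a (log2 fold change 1.06 ± 0.36) and the second chrna6 gene (log2 fold change 2.48 ± 0.84). The calls of chrnb3a and the second chrna6 gene were each lost without control replicate 1 or 2 or high-dose replicate 2, and that of chrnb3a also without high-dose replicate 3 (adjusted p = 0.0516 to 0.122), and both after quantile normalization (adjusted p = 0.886 and 0.255). chrne (ENSORLG00000008035), of the adult muscle receptor, had 20.1, 72.6 and 22.3 normalized counts in the high-dose libraries, against 3.18, 2.49 and 8.71 in the controls (log2 fold change 2.67 ± 0.59, limma adjusted p = 0.00257). Of 11 skeletal and heart muscle markers tested at the high dose, 1 was called higher and 1 called lower. The list summed to between 2043 and 2442 counts at the high dose, against 3496 to 3764 in the controls. Much of that sum was ryr1b, the gene called lower, which averaged 724.5 counts at the high dose and 1899 in the controls. The mean log2 difference from control over the list was 0.0753, 0.397 and 0.16 in high-dose replicates 1 to 3. CHRNA2 (ENSORLG00000008800) had 68.9, 188 and 99.9 against 33.9, 28.7 and 47.6 (log2 fold change 1.58 ± 0.32, adjusted p = 0.0016). chrna5 (ENSORLG00000020077), an accessory subunit, had 14.4, 40.5 and 26.6 against 6.36, 1.25 and 4.69 (log2 fold change 2.52 ± 0.58, adjusted p = 0.0034, and 0.0736 after quantile normalization). For chrne, CHRNA2 and chrna5 no high-dose library overlapped a control, and replicate 2 was the highest. At the low dose, chrna4b (ENSORLG00000000865), which forms the main brain type of receptor, had 45.02, 23.96 and 96.1 against 139, 146 and 119 (log2 fold change -1.49 ± 0.34, adjusted p = 0.00277). chrna11 (ENSORLG00000024582) had 8.19, 0 and 3.00 against 25.4, 13.7 and 16.8 (log2 fold change -2.52 ± 0.62, adjusted p = 0.00442). Both genes were lower in every low-dose library.

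The high-dose libraries differed among themselves, and the channel and receptor genes moved with the other genes of low count. The median log2 difference from the control mean over the 117 genes was 0.48, 1.57 and 0.94 in high-dose replicates 1, 2 and 3. Over all tested genes with means of 10 to 100 it was 0.43, 1.08 and 0.61 in the same libraries. High-dose replicate 2 was the highest of the 3 in 93 of the 117 genes and in 53 of the 55 called higher. Replicate 1, which held the fewest reads of all libraries at 3.21 M, had 0.0826% of reads in the members, against 0.157% in replicate 2. Without high-dose replicate 2 the calls were 37 higher and 3 lower, beside 11.8% and 14.9% of all genes. Over the 6 libraries left out in turn the member calls ranged from 40 to 64. Of the 59 calls, 37 held in each of those 6 fits.

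**Figure D4:**
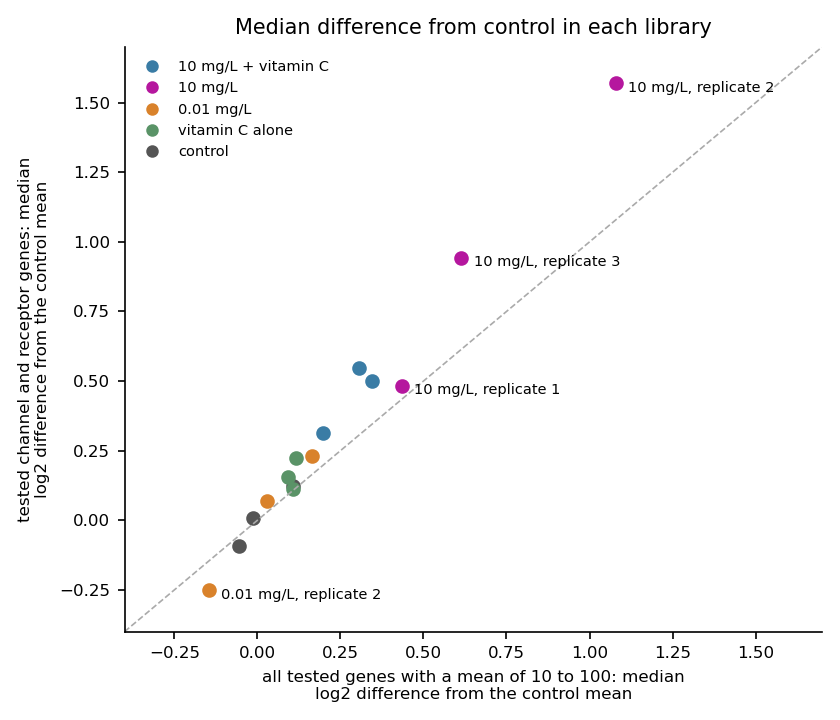
Each point is 1 of the 15 libraries, placed by its median log2 difference from the control mean over all tested genes with means of 10 to 100 (horizontal) and over the 117 channel and receptor genes (vertical); the dashed line marks equal medians. High-dose replicate 2 lies farthest out, at 1.08 and 1.57. Every library except control replicate 2 and low-dose replicate 2 lies above the dashed line.

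Some markers of other cell types were also higher at the high dose. Of 13 neuron and synapse markers tested, 8 were higher and 1 lower than in control, led by elavl3 (log2 fold change 2.47, limma adjusted p = 0.000738). The 16 markers found of 24 listed summed to between 807 and 1250 normalized counts at the high dose, against 787 to 1059 in the controls. At most 1 of the 16 was at 0 in any library. Much of the control sum was syt1a and stxbp1b, the gene called lower. These averaged 429.9 and 268.9 counts in the controls, and 327.8 and 61.96 at the high dose. The mean log2 difference from control over the neuron and synapse list was 0.664, 1.83 and 1 in high-dose replicates 1 to 3. Of 9 glia markers tested 6 were higher and none lower, and the 12 found summed to between 2873 and 3140 counts, against 1088 to 1384 in the controls, most of it fabp7a. Kidney and gut markers (6 higher of 8 tested) summed to between 3229 and 5711 counts at the high dose, 179.8 to 248.8 at the high dose with vitamin C, and 201.8 to 1241 in the controls. Immune cell (7 of 11, with 1 mpx gene lower), pancreas (6 of 8), endothelial (5 of 8), oocyte (4 of 8) and red blood cell markers (2 of 4) were also called higher in part, where 18.3% of all tested genes were. Red blood cell markers summed to between 316.8 and 710.8 counts at the high dose, against 58.56 to 123 in the controls, and oocyte markers to between 767.5 and 1119, against 274.7 to 365.1. The part of these cells in the results was not tested.

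Set directly against the low dose, the high dose had 55 of the 117 genes higher and 13 lower, with a background of 22.4% higher and 26.1% lower. The largest rise was KCNH8 (log2 fold change 4.43 ± 0.65, limma adjusted p = 0.000159), which was at 0 in low-dose replicates 1 and 2. KCNH8 passed the filter only through the high-dose libraries, so that a high-dose rise was built into passing it. With a minimum mean of 10 outside the high dose, 46 were higher and 13 lower of 104, beside 20.3% and 27% of all genes. KCNA4 (ENSORLG00000001296), a rapidly inactivating A-type channel, had 28.7, 202 and 90.4 normalized counts at the high dose, against 4.09, 11.98 and 12.01 at the low dose (log2 fold change 3.11 ± 0.56, adjusted p = 0.000639). cacnb1 (ENSORLG00000002991), the beta subunit of the skeletal muscle channel, had 48.8, 179 and 115 against 10.2, 16.8 and 30.02 (log2 fold change 2.46 ± 0.45, adjusted p = 0.000683). The largest fall was kcnk6 (log2 fold change -4.93 ± 0.40, adjusted p = 7.14e-07). kcnh1a fell too (log2 fold change -2.24 ± 0.59, adjusted p = 0.00669), as did HCN4 (log2 fold change -1.77 ± 0.48, adjusted p = 0.00791), though the groups of both overlapped. Fitted on these 6 libraries alone, 22 were higher and 1 lower, beside 5.03% and 9.41% of all genes, and kcnh1a and HCN4 lost their calls (adjusted p = 0.0691 and 0.0702). With the low dose as its replicate 3 alone, the median log2 fold change was 0.725 over the 117 genes, against -0.0015 over all genes.

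The next comparison asked whether vitamin C changed these levels at the high dose. Adding vitamin C to the high dose gave 2 of the 117 genes higher and 5 lower than without it, with a background of 7.74% higher and 2.64% lower. The median log2 fold change was -0.61 over the 117 genes and -0.10 over all genes; among genes with means of 10 to 100 the medians were -0.68 and -0.44. In 39 of the 117 genes all vitamin C libraries lay below all high-dose libraries, a pattern that 19.1% of all tested genes showed, and in 5 all lay above, beside 21.3%. grin1a (ENSORLG00000014189) had 7.68, 8.39 and 8.98 normalized counts with vitamin C, against 17.2, 30.2 and 25.5 at the high dose (log2 fold change -1.40 ± 0.43, limma adjusted p = 0.049). KCNN2 had 8.48, 7.79 and 6.53 against 20.1, 25.7 and 20.2 (log2 fold change -1.42 ± 0.40, adjusted p = 0.035). scn2b had 30.7, 25.8 and 23.7 against 60.3, 69.99 and 59.5 (log2 fold change -1.22 ± 0.36, adjusted p = 0.0431). None of these genes' groups overlapped. grin1a and KCNN2 passed the filter only through the high-dose libraries, so that for them a fall from the high dose was favoured by the filter. With a minimum mean of 10 outside the high dose, 2 were higher and 3 lower of 104, beside 8.06% and 2.46% of all genes.

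The 2 genes called higher with vitamin C were cacnb4.1 and KCNS1. cacnb4.1 had 229, 195 and 287 normalized counts at the high dose with vitamin C, against 109, 103 and 113 at the high dose (log2 fold change 1.11 ± 0.24, limma adjusted p = 0.00999). KCNS1 (ENSORLG00000020056), a silent Kv subunit, had 65.9, 74.9 and 97.2 against 37.3, 29.5 and 46.8 (log2 fold change 1.05 ± 0.27, adjusted p = 0.0243). Same-numbered libraries of these groups were treated as possibly paired, which the labels do not state. With the number as a block, fitted over all libraries, 2 were higher and 3 lower. kcnc3b gained a call (log2 fold change -1.46, adjusted p = 0.0406, from 0.0513 without it), while grin1a (adjusted p = 0.0656), KCNH7 ENSORLG00000016915 (0.0616, from 0.0451 without it) and cacna1da (0.0706, from 0.0496) lost their calls. No call here held with every library left out in turn: without replicate 3 of the high dose with vitamin C 0 genes were called, and cacnb4.1 had an adjusted p of 0.0682. Count models called more. With edgeR 2 were higher and 14 lower, beside 10.1% and 4.47% of all genes, and with DESeq2 2 and 28, beside 11.2% and 9.74%.

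Set against control, the high dose with vitamin C had 3 genes higher and 1 lower, with a background of 2.36% higher and 1.26% lower. gria4a had 20.6, 28.8 and 31.03 normalized counts with perchlorate and vitamin C, against 6.36, 2.49 and 7.37 in the controls (log2 fold change 2.19 ± 0.44, limma adjusted p = 0.0179). KCNK12 had 40.8, 58.8 and 51.5 against 10.6, 11.2 and 9.38 (log2 fold change 2.16 ± 0.46, adjusted p = 0.02). cacna1c had 30.7, 47.4 and 46.5 against 13.8, 11.2 and 17.4 (log2 fold change 1.49 ± 0.38, adjusted p = 0.0442). In each the groups did not overlap, and grinaa, the gene called lower (log2 fold change -1.22 ± 0.28, adjusted p = 0.0272), had 404, 319 and 295 against 860.0, 1103 and 509. All 4 calls were lost without control replicate 1 or 2 or without replicate 2 or 3 of the high dose with vitamin C (adjusted p = 0.0621 to 0.205). The 55 genes called higher at the high dose had a median log2 fold change over control of 2.12 at the high dose and 1.22 at the high dose with vitamin C. For 53 of them the vitamin C mean lay between the high-dose and control means, as it did for 89.8% of the 3248 genes of any kind called higher; both comparisons share the controls, and the genes were chosen for being high at the high dose.

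Vitamin C alone changed 1 of the 117 genes, which was lower, with a background of 0.304% higher and 0.101% lower. cacng6a (ENSORLG00000006043), a gamma subunit of muscle-type calcium channels, had 0.590, 3.22 and 2.36 normalized counts with vitamin C alone, against 26.5, 39.9 and 36.2 in the controls. The groups were far apart (log2 fold change -3.62 ± 0.59, limma adjusted p = 0.0121), and the call was lost without control replicate 2 (adjusted p = 0.0871) or without vitamin C replicate 1 or 3 (adjusted p = 0.0689 and 0.0775). With perchlorate at the high dose it had 8.62, 14.1 and 6.38, also below the controls (log2 fold change -1.76 ± 0.59, adjusted p = 0.0267). That call was lost without control replicate 2 or 3 or high-dose replicate 1 or 3 (adjusted p = 0.0554 to 0.0899). At the high dose with vitamin C it had 9.70, 31.8 and 17.97, which overlapped both the high dose and the controls. The change with vitamin C at the high dose differed from that with vitamin C alone, by the interaction term of the fit, in 7 of the 117 genes, with 1 above 0 (cacng6a) and 6 below, against a background of 5.6% above and 2.47% below.

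**Figure D5:**
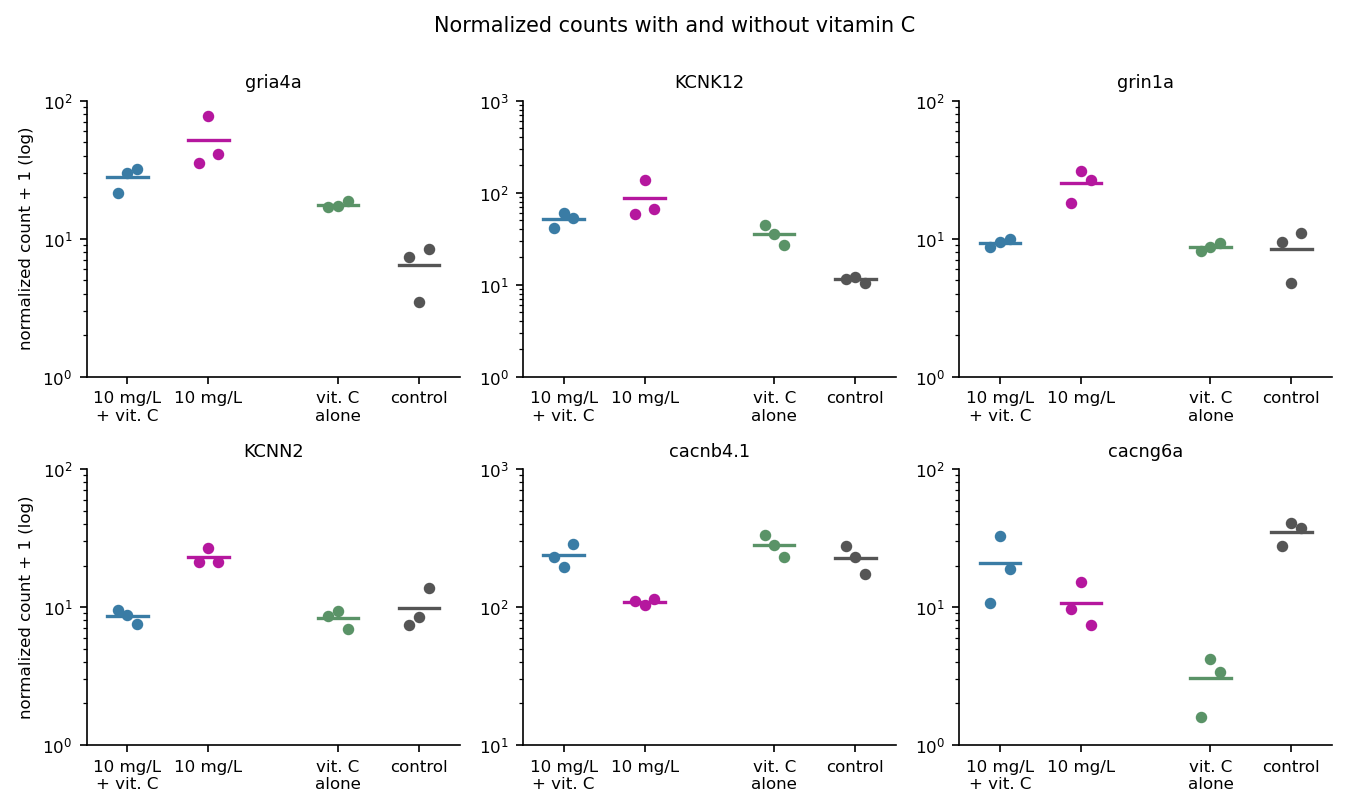
Normalized counts plus 1 on log axes for 6 genes, with the high dose plus vitamin C left of the high dose, and vitamin C alone left of control; points are libraries and bars are group means of 3. grin1a and KCNN2, which passed the filter only through the high-dose libraries, lie lower with vitamin C at the high dose. cacnb4.1 lies higher there, and cacng6a is lowest with vitamin C alone.

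The remaining 62 channel and receptor genes had means under 10, up to 9.94, with a median mean of 4.85, and were not tested. None was at 0 in every library. Of these, 32 had a mean of at least 10 in at least 1 group; that group was or included the high dose for 28, the low dose for 6 and the control for 0. They included 17 voltage-gated potassium pores, 11 calcium auxiliary and 11 nicotinic genes, with both genes annotated CHRNA1, the alpha subunit of the muscle receptor, and kcnk5b among them. Some tested genes with the highest mean of their family were called at neither dose: the NMDA subunit gene GRIN3A (log2 fold change -0.13 ± 0.30 at the high dose, limma adjusted p = 0.755) and the glycine receptor gene glra4a (0.58 ± 0.56, adjusted p = 0.436). kcnh6a, of the ERG channels, was also not called (-0.54 ± 0.43, adjusted p = 0.334).

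Among genes that work beside these channels, the background over all tested genes was 18.3% higher and 20.5% lower at the high dose, and 24.9% and 22.9% at the low dose. Of 18 receptors that signal through G proteins instead of a pore (metabotropic glutamate, GABA-B, serotonin and similar), 11 rose and none fell at the high dose, with a median log2 fold change of 1.64, and 5 rose and 3 fell at the low dose. They included the metabotropic glutamate receptor genes grm4 (log2 fold change 2.48 ± 0.40, limma adjusted p = 0.00032) and grm8a (2.75 ± 0.47, adjusted p = 0.000494). Of 43 genes for transmitter synthesis, transport and receptor scaffolds, 18 rose and 7 fell at the high dose. GAD1, which makes GABA, averaged 98.3 normalized counts at the high dose, against 9.59 in control (log2 fold change 3.13 ± 0.44, adjusted p = 0.000146), and it was lower at the high dose with vitamin C, at 26.1 (log2 fold change -1.69 ± 0.44 against the high dose, adjusted p = 0.0235). The GABA transporter gene slc6a1a rose at the high dose too (log2 fold change 2.19 ± 0.36, adjusted p = 0.000376). Of 56 other ion channels, 11 rose and 4 fell at the high dose, with a median of 0.26, and 14 rose and 15 fell at the low dose; the shares higher, 19.6% and 25%, and the share lower at the low dose, 26.8%, were near the background. hvcn1, a proton channel, rose at the low dose (log2 fold change 3.05 ± 0.46, adjusted p = 0.000216), and ryr1b, a calcium release channel of skeletal muscle, fell (log2 fold change -2.04 ± 0.32, adjusted p = 0.000261).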

How the data were processed

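RNA from medaka testis was sequenced in 15 libraries. Per the labels' protocols, RNA was extracted with a ZR-Duet kit and libraries were made with NEBNext Ultra II. Per the submitters' processing notes, fastp 0.23.2, STAR 2.7.7a and DESeq2 1.34.0 were used; the counting tool, strand setting and build were not given in the sources used here, so antisense or overlapping genes and near-identical copies cannot be told apart. The values are the authors' deposited signal: gene counts divided by size factors. All of the 345420 values gave whole reads within a tolerance of 0.001, and depth comes from those recovered reads. The sample titles mark the replicates as biological, but whether they were separate fish or pools is not stated. The p-values therefore measure the spread between these samples, which may not be that between fish.

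Values were taken as log2(value + 1), and the 17778 genes whose average over all libraries reached 10 were fitted together with limma 3.58.1 (trend) in R 4.3.3, with Benjamini-Hochberg adjusted p under 0.05 over all of them, in 7 comparisons that share libraries. The fit was tested on simulated data. Alternatives changed the filter, pseudocount, normalization, samples fitted, left-out library or replicate block, or used edgeR 4.0.16 or DESeq2 1.42.0 on the recovered reads. Same-numbered libraries had correlated deviations above 0.1 in all 3 pairs (0.361, 0.198 and 0.124) only for high dose with vitamin C against high dose. Libraries of different numbers were not compared in this way. The numbers were taken as a possible pairing of those libraries, which the labels do not state. The replicate block itself was fitted over all libraries at once. 12 members share a symbol with another and carry their identifier. Named genes were up to 8 largest rises and 8 largest falls per comparison, the highest mean of each family and a set panel; other genes, and those of the related and marker lists, were named after their values were seen. Results for some members are not reported here. The members and lists were chosen with earlier results of these data known.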

Additional observations from a re-analysis of the deposited data

Results flagged for a closer look

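In 7 genes the change with vitamin C at the high dose differed from the change with vitamin C alone, by the interaction term of the fit (limma adjusted p under 0.05), with a background of 5.6% of all tested genes above 0 and 2.47% below. The log2 difference was 4.5 for cacng6a, -4.67 for chrna6 (ENSORLG00000003243), -2.91 for kcnk10a, -2.38 for gria4a, -2.29 for KCNK12, -2.24 for kcnc3b and -2.09 for kcnf1a. Of these 7, cacng6a kept its call whichever library was left out.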

How the results depend on the processing

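The total counts of called members, rises and falls together, held within 1.5 times for perchlorate against control under pseudocounts of 0.5 and 5, no filter, quantile normalization, scaling on highly expressed genes, the replicate block, edgeR and DESeq2. Directions and members did change. Quantile normalization gave 33 higher and 12 lower at the high dose, where the main fit gave 55 and 4, with 36 calls shared. At the low dose it gave 17 and 24, where the main fit gave 22 and 17, with 34 shared. A minimum mean of 50 left 23 calls (low dose against control), 10 (high dose against control), 23 (high against low dose), 2 (high dose with vitamin C against high dose), 1 (high dose with vitamin C against control), 0 (vitamin C alone) and 0 (interaction), with fewer genes tested. Fitting only the groups compared gave 18 for low dose against control (14 higher, 4 lower), 23 for high against low dose (22 higher, 1 lower), 26 for high dose with vitamin C against control, 6 for vitamin C alone and 22 for the interaction. Against the high dose, the high dose with vitamin C had 16 calls with edgeR and 30 with DESeq2, and against control 9 and 15. DESeq2 gave 5 for vitamin C alone and 20 for the interaction, quantile normalization 4 for the interaction, and scaling 7 for the high dose with vitamin C against control. With the third low-dose library alone, low dose against control gave 6 and high against low dose 24, where kcnk5a turned round (log2 0.4045, adjusted p = 0.363). Leaving out 1 library gave 30 to 51 calls for low dose against control, 40 to 64 for high dose against control, 47 to 79 for high against low dose, 0 to 10 for high dose with vitamin C against high dose, 0 to 6 against control, 0 to 3 for vitamin C alone and 1 to 10 for the interaction. The replicate block gave 41, 57, 66, 5, 5, 1 and 5 calls in that order. For high dose with vitamin C against high dose, quantile normalization gave 3 higher and 4 lower, beside 9.71% and 5.1% of all genes. Scaling gave 1 and 5 there, beside 4.87% and 4.32%. The shares of all tested genes called also moved with the settings. The cause of these changes was not tested. Low counts limit most members, 99 of 117 having means of 10 to 100.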
